A study of Mus musculus with 6 samples.

Results

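The C/EBP transcription factors were followed in epididymal white adipose tissue of mice that carry the Pparg allele ldi. The members were all probe sets of the deposited value table whose single platform gene symbol is Cebpa, Cebpb, Cebpd, Cebpe or Cebpg. This gave 4 of 18193 named genes and 8 of 45037 probe sets that are not controls: 1 for Cebpa, 2 each for Cebpb and Cebpd, and 3 for Cebpg. No probe set carried Cebpe as its single symbol among the 5 genes, so Cebpe was not analysed here.

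Groups were 3 Pparg ldi/+ males and 3 wild-type males, all 10 weeks old and of mixed C57BL6;129Sv background, with the controls matched by litter. Pparg ldi/+ mice carry 1 ldi and 1 wild-type copy of Pparg, and the labels describe them as lipodystrophic. RNA from the fat pad along the epididymis of a single mouse went onto each Affymetrix MOE430v2.0 array, so precision is limited by having 3 arrays a genotype. The labels name no promoter or cell type that would restrict the allele. The tissue was the whole pad, so its signals mix adipocytes with other cells.

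C/EBP factors are basic leucine zipper (bZIP) proteins that bind DNA as dimers with each other or with related bZIP proteins. In cultured preadipocytes C/EBPbeta and C/EBPdelta appear early after the hormonal stimulus and turn on Pparg and Cebpa. C/EBPalpha and PPARG then maintain each other's expression in the mature fat cell. C/EBPalpha, C/EBPbeta and C/EBPdelta also act in macrophages and in the acute-phase response, C/EBPepsilon acts in granulocytes, and C/EBPgamma, which lacks a strong activation domain, pairs with other members and with ATF4.

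A gene's promoter lies in the stretch just before its start. The 250 bases before the starts of Cebpa, Cebpb and Cebpg are shown, from RefSeq on GRCm38.p6, with motif matches on either strand in capitals. The motifs were chosen after values were seen, so their matches describe the 3 windows and test nothing. Of the motifs searched, TTGCG is the core of a C/EBP site and TTGCNNAA a fuller form of it. The CCAAT box and the TATA box, searched as TATAAA, are general promoter elements, and TGACG is the core of the cyclic AMP response element. No match overlapped another in the 3 windows. No promoter of Cebpd or Cebpe was used here.
Cebpa, chr7:35119043-35119292, + strand: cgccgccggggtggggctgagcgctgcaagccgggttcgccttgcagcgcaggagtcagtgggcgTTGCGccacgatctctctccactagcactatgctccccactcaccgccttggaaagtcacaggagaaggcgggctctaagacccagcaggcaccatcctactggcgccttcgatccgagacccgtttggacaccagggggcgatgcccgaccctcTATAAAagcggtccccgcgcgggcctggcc
Cebpb, chr2:167688665-167688914, + strand: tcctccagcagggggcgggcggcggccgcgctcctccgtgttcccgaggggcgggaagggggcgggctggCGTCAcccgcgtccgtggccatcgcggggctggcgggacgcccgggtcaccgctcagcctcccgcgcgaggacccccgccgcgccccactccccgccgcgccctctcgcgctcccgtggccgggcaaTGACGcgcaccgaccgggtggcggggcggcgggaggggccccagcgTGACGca
Cebpg, chr7:35056567-35056816, - strand: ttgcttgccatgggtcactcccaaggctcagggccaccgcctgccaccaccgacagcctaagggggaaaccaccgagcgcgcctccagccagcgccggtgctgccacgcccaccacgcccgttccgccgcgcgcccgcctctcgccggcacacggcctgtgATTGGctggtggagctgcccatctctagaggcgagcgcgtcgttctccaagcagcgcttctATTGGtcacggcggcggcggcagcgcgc

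The Cebpa window held 1 TTGCG, 185 bases before the start, and 1 TATAAA, 30 bases before it. TTGCG was found in 14.5% and TATAAA in 12.4% of 32851 RefSeq promoter windows of that length. The Cebpb window held 3 TGACG matches, 180, 53 and 7 bases before the start, where 17.8% of windows hold at least 1. The Cebpg window held 2 CCAAT matches, both on the opposite strand, 89 and 28 bases before the start, where 33.8% of windows hold at least 1. The fuller form TTGCNNAA, which 9.56% of windows hold, had 0 matches in the 3 windows, which says only that these letters are not there. The windows contained 66.4% G and C for Cebpa, 81.6% for Cebpb and 70.8% for Cebpg.

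Trimmed means of the deposited signals lay between 199.8 and 235.3, and an array correlated across tested probe sets at a mean r of 0.973 to 0.980 with the others of its genotype and at 0.901 to 0.915 with the other genotype; probe sets are not independent replicates. Pparg ldi/+ arrays 1 and 2 stood apart by epididymal transcripts. The summed signal of 10 epididymis markers was 23299 and 31915 on them, 721 on Pparg ldi/+ array 3 and 638 to 1283 on the wild-type arrays. Adipocyte identity was clear on every array, with a summed signal of 12 adipocyte markers of 227421 to 256914 in wild type and 135855 to 148179 in Pparg ldi/+. None (0) of the marker genes used here was listed at 0. Wild-type mice had a Pparg signal of 4622 ± 341 and the mutants 1786 ± 105 (SD, n = 3 each), so Pparg fell 2.56-fold (log2 -1.36, limma adjusted p = 1.05e-05). The sources used here do not say whether its probes see the ldi transcript.

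In Pparg ldi/+ fat, Cebpa fell to 46.9% of its wild-type level, Cebpg fell to 76.1% and 68.7% in 2 of its 3 probe sets, Cebpd rose 1.34-fold in 1 of 2, and neither probe set of Cebpb passed the test. All 8 probe sets were bright enough to be tested, 3 fell, 1 rose and 4 did not pass. Over all 22519 tested probe sets 29% passed, 14.5% upward and 14.6% downward, so the number of members called, 4 of 8, is to be read against that share. The genotypes did not overlap in 3 of the 8, where 44.4% of all tested probe sets do not overlap. The median log2 difference of all tested probe sets was near 0, at -0.0031. Rose and fell are used only of probe sets with a Benjamini-Hochberg adjusted p under 0.05 in limma's moderated test across all tested probe sets. Signals are scaled to a common trimmed mean. An offset of 32 was added before log2, which shrinks the differences of dim probe sets.

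Cebpa, the C/EBP factor of the mature adipocyte, was read by probe set 1418982_at. Its signal was 16198, 16513 and 16424 in the wild-type mice and 7670, 7654 and 7663 in the Pparg ldi/+ mice. All 3 Pparg ldi/+ values lay far below all 3 wild-type values, and within each genotype the mice were nearly equal. The means were 16378 ± 163 and 7662 ± 8.23 (SD, n = 3 each), a 2.13-fold fall that left 46.9% of the wild-type level. The log2 difference was -1.09 (SE 0.056, 95% confidence interval -1.22 to -0.97, adjusted p = 3.64e-06). By exact permutation of the 6 values, two-sided, p = 0.1, and groups of 3 can give no smaller p. Counted from the lowest log2 difference, Cebpa ranked 339 among 11201 genes represented by their brightest probe set. The fall was as large on Pparg ldi/+ array 3, which lacked the epididymal transcripts, as on the others. Beside Cebpa, 10 of 12 adipocyte markers fell, with a median of -1.16, and 6 of 7 endothelial markers fell, with a median of -1.12. Of all 11201 tested genes 16% fell. Fewer adipocytes and less RNA per adipocyte cannot be told apart in whole tissue.

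Cebpg was read by 3 probe sets. Probe set 1425262_at gave signals of 1601, 1733 and 1627 in wild type and 1235, 1199 and 1317 in Pparg ldi/+. The groups did not overlap, and the level in Pparg ldi/+ was 76.1% of wild type (log2 -0.39, SE 0.087, 95% confidence interval -0.59 to -0.20, adjusted p = 0.00879). Probe set 1451639_at gave 1267, 1300 and 1085 in wild type and 767, 861 and 847 in Pparg ldi/+. Here too every Pparg ldi/+ mouse was below every wild-type mouse, at 68.7% of wild type (log2 -0.54, SE 0.107, 95% confidence interval -0.78 to -0.30, adjusted p = 0.0049). The dimmest of the 3 probe sets, 1425261_at, gave 125, 173 and 165 in wild type and 152, 91.6 and 188 in Pparg ldi/+. Its groups overlapped, and the log2 difference of -0.11 did not pass (95% confidence interval -0.67 to 0.44, adjusted p = 0.775). Its mean log2 value of 7.47 lay at the lower limit for testing. With Pparg ldi/+ array 3 as the only mutant array, the differences of the 2 brighter probe sets were -0.32 (adjusted p = 0.228) and -0.50 (adjusted p = 0.112). Neither passed in that fit, whose spread comes from the wild-type arrays only, against -0.39 and -0.54 with all arrays.

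Cebpd, an early factor of fat cell differentiation that is also induced in inflammation, differed between its probe sets. Probe set 1423233_at gave signals of 1846, 1729 and 2468 in wild type and 2865, 2449 and 2733 in Pparg ldi/+. Wild-type mouse 3 lay just above the lowest Pparg ldi/+ mouse, so the groups overlapped, while the other wild-type mice were well below. The mean rose from 2014 ± 397 to 2683 ± 212 (SD, n = 3 each), or 1.34-fold (log2 0.42, SE 0.134, 95% confidence interval 0.12 to 0.73, adjusted p = 0.0434, exact permutation p = 0.2). This call did not survive the removal of any array other than wild-type array 3. The difference was 0.37, 0.49 and 0.41 without Pparg ldi/+ array 1, 2 or 3, and 0.37 and 0.32 without wild-type array 1 or 2. Without wild-type array 3 it passed at 0.57, and with Pparg ldi/+ array 3 alone it was 0.45 and did not pass. The second probe set, 1456605_at, was dim, at 152, 188 and 199 in wild type and 152, 175 and 189 in Pparg ldi/+. Its groups overlapped almost fully (log2 -0.05, 95% confidence interval -0.44 to 0.34, adjusted p = 0.858). All 18 macrophage markers rose, with a summed signal of 47407 to 62885 in wild type and 131841 to 135847 in Pparg ldi/+. Of 8 stromal markers 3 rose and 2 fell. Of all 11201 tested genes 15.9% rose and 16% fell. The part of macrophages and stromal cells in the Cebpd and Cebpb signals was not tested.

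Cebpb, the other early factor and a mediator of cytokine and cyclic AMP responses, did not pass the test in either probe set. Probe set 1418901_at gave 4867, 6660 and 4965 in wild type and 5258, 5331 and 5356 in Pparg ldi/+. Wild-type mouse 2 stood above all others, the other wild-type mice stood below all Pparg ldi/+ mice, and the means were 5497 ± 1008 and 5315 ± 50.7 (SD, n = 3 each). The log2 difference of -0.03 had a 95% confidence interval of -0.30 to 0.23 (adjusted p = 0.862). Without wild-type array 2 it was 0.11 and did not pass. Probe set 1427844_a_at gave 1572, 1565 and 1302 in wild type and 1415, 1599 and 1428 in Pparg ldi/+, again overlapping (log2 0.0039, 95% confidence interval -0.24 to 0.24, adjusted p = 0.983). Both intervals span 0 and leave room for a modest change either way. C/EBPbeta is made as long and short proteins from the same transcript, which these probe sets do not separate.

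**Figure D1:**
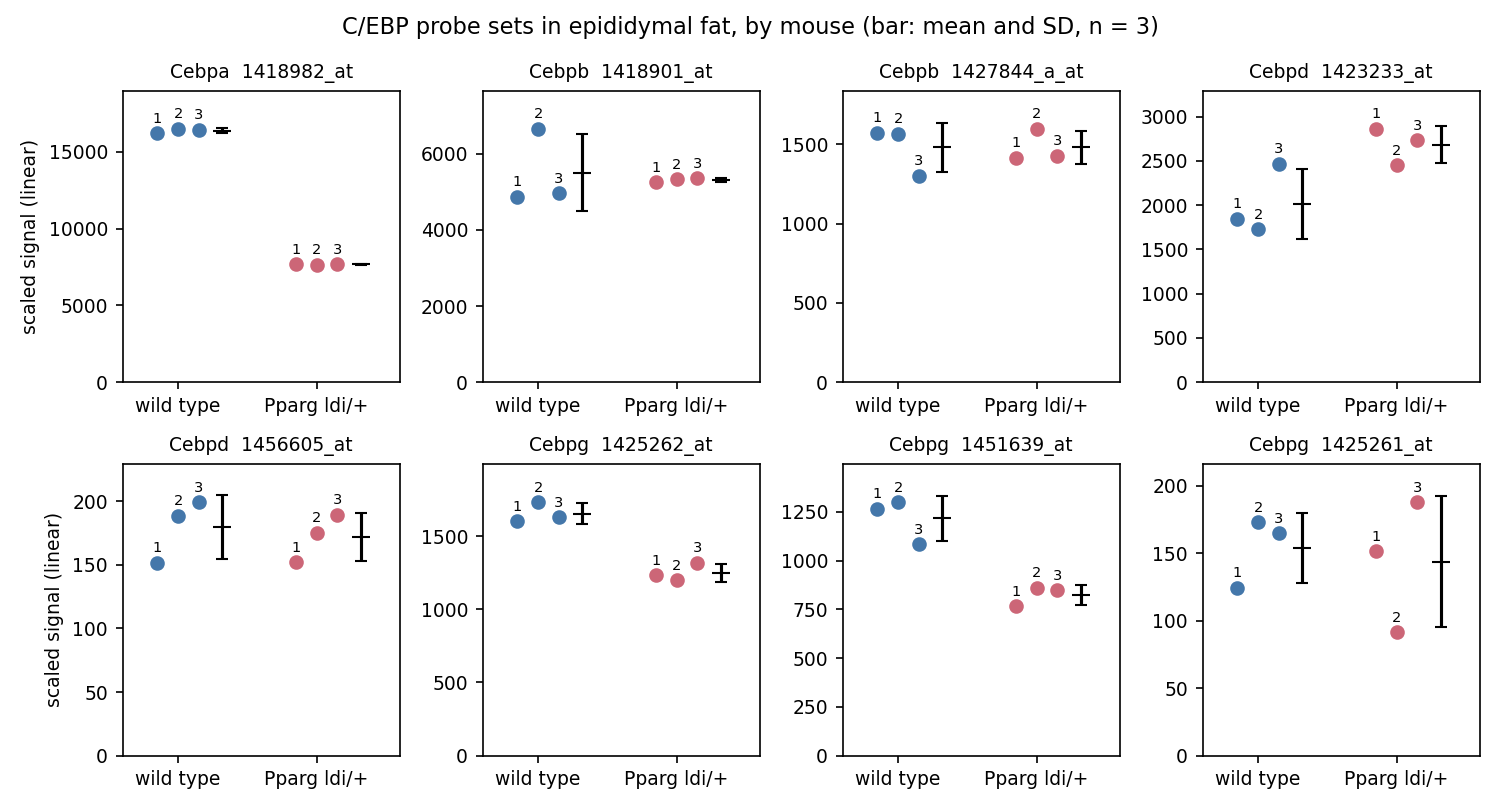
Scaled linear signal of each C/EBP probe set (y axes from 0, each panel on its own scale) in the 3 wild-type (blue) and 3 Pparg ldi/+ mice (red), numbered as in the labels, with the mean and SD beside the points. The groups separate for Cebpa and for Cebpg probe sets 1425262_at and 1451639_at and overlap in the other 5 panels.

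The same differences with their intervals are plotted for all 8 probe sets beside Pparg. Cebpa, at -1.09, lay nearer to Pparg, at -1.36, than to any other C/EBP probe set.

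**Figure D2:**
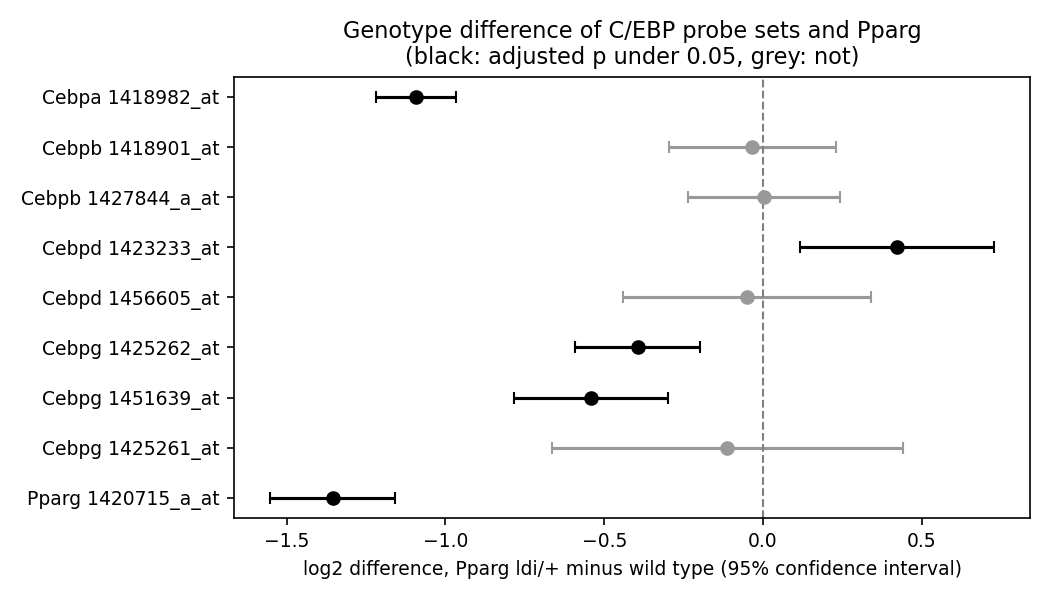
Log2 difference, Pparg ldi/+ minus wild type, with its 95% confidence interval from limma for each C/EBP probe set and for Pparg. Black marks an adjusted p under 0.05 and grey the 4 probe sets that did not pass, all of whose intervals span 0.

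Leaving out arrays separated the calls by how firmly they stood. Cebpa stayed between -1.10 and -1.09 when any array was left out and was at -1.09 with Pparg ldi/+ array 3 alone (adjusted p = 0.00107). The fit of array 3 alone has 1 Pparg ldi/+ mouse, so its spread comes from the wild-type arrays only and the lone mouse is assumed to vary like them. The 2 brighter Cebpg probe sets passed in each fit that left out 1 array, at -0.43 to -0.36 and -0.62 to -0.49, and Cebpd passed in 1 of these 6 fits.

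**Figure D3:**
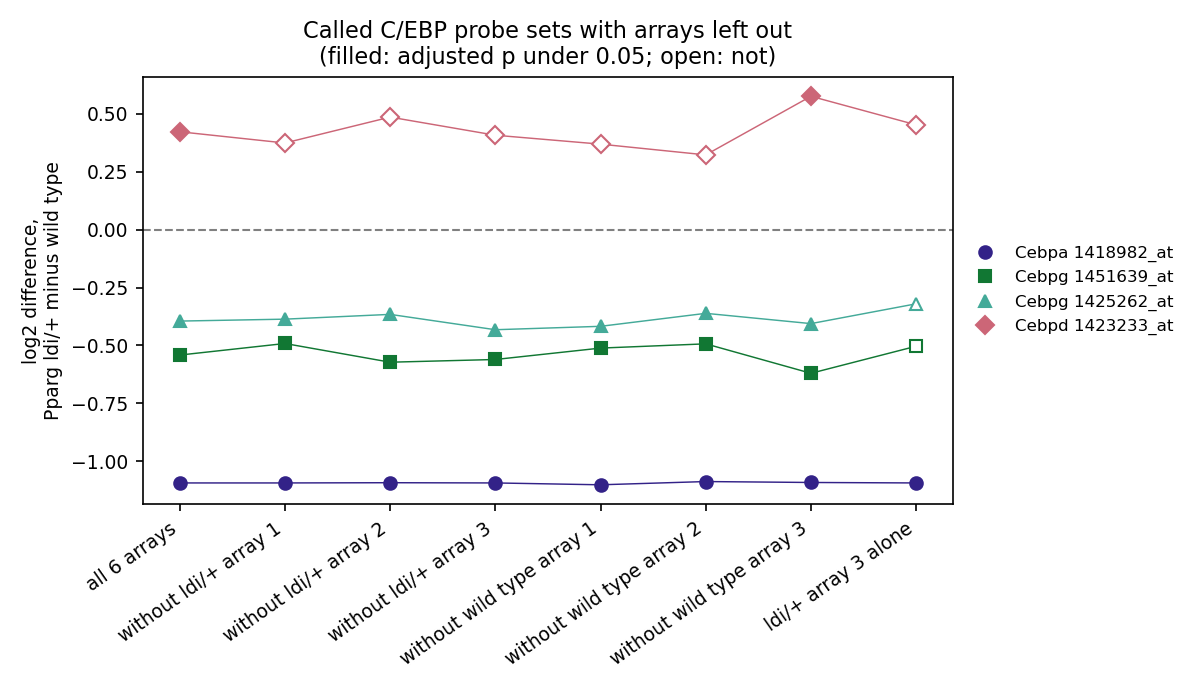
Log2 difference, Pparg ldi/+ minus wild type, of the 4 called C/EBP probe sets with all 6 arrays, with each array left out, and with Pparg ldi/+ array 3 alone. Filled symbols passed at an adjusted p under 0.05; the Cebpa line is flat near -1.09 while Cebpd is filled only with all arrays and without wild-type array 3.

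The balance among the C/EBP genes was compared within arrays, which removes array scaling, using the brightest probe set of each gene. Probe sets differ in binding strength, so only the change of a difference between genotypes has meaning. Relative to Cebpd, Cebpa changed by -1.51 on the log2 scale. Cebpd was read here by 1423233_at, whose own log2 difference was 0.42, against -0.05 for its dim probe set 1456605_at. Cebpg was read by 1425262_at, at -0.39, against -0.54 for 1451639_at and -0.11 for the dim 1425261_at. The size of each change that involves Cebpd or Cebpg therefore depends on the probe set. The Cebpa minus Cebpd value was 3.11, 3.23 and 2.72 in wild type and 1.41, 1.63 and 1.48 in Pparg ldi/+, with no overlap. Relative to Cebpb, Cebpa changed by -1.06, from 1.58 ± 0.24 to 0.53 ± 0.015 (SD, n = 3 each), and relative to Cebpg by -0.70, from 3.28 ± 0.048 to 2.59 ± 0.067. Cebpd minus Cebpg changed by 0.82 and Cebpb minus Cebpg by 0.36, and these groups did not overlap either. Cebpb minus Cebpd changed by -0.46 with overlapping groups (exact permutation p = 0.2). For the other 5 of the 6 pairs the exact two-sided permutation p was 0.1, the smallest possible, and 0.12 when adjusted over the 6 pairs. Groups of 3 give this exact test no smaller p, so it could not bring a pair past 0.05, and no model-based test of the pairs was run.

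**Figure D4:**
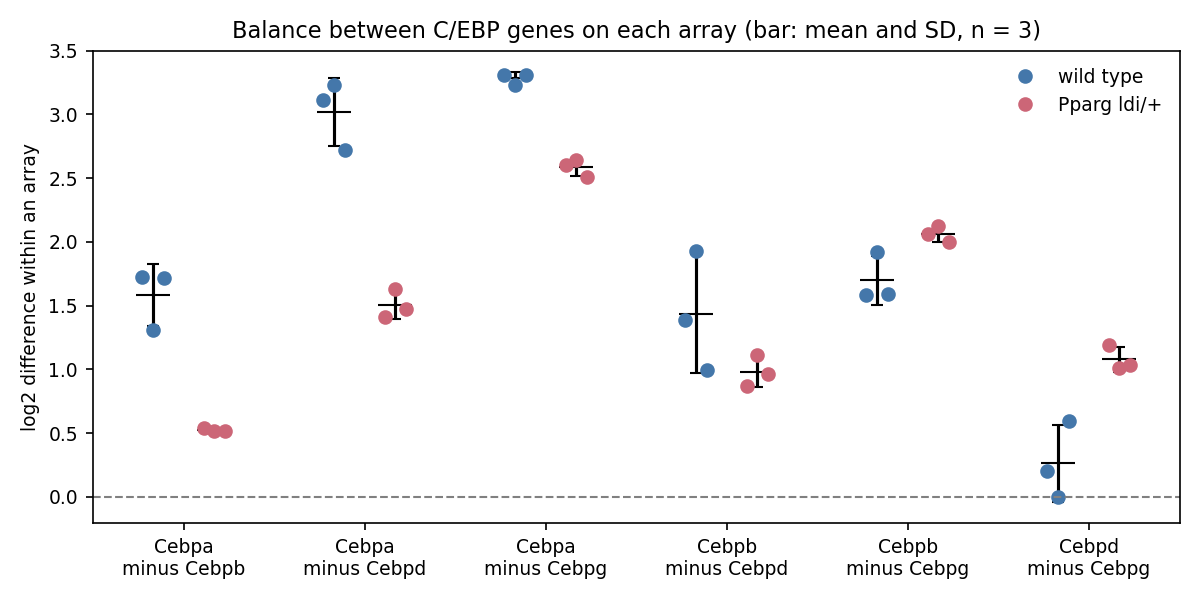
Difference of log2 values between C/EBP genes on the same array (y axis, log2), for 6 gene pairs in wild-type (blue) and Pparg ldi/+ mice (red), with mean and SD. The 3 pairs with Cebpa are lower in Pparg ldi/+, by 0.70 to 1.51, and the groups overlap for Cebpb minus Cebpd only.

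Probe sets of other genes that followed each member most closely were found by the root mean square difference of mean-centred log2 values over the 6 arrays. For Cebpa these were Ttc28 (0.0377), Igfbp4 (0.0414) and Arfgap2 (0.0524), whose log2 differences between genotypes were -1.05, -1.03 and -1.16; the Igfbp4 probe set may cross-hybridise. For Cebpb they were Fastk (0.0205), Utp6 (0.024) and Ufsp1 (0.0333), all high in wild-type mouse 2 as Cebpb was. For Cebpd they were Tmem164, D16Ertd472e and Trim2 (0.0381 to 0.0536), and for Cebpg Mfsd14b, Kif1c and Cux1 (0.0261 to 0.031). These are descriptions of likeness over 6 arrays. The probe sets of Ttc28, Igfbp4, Arfgap2, Utp6, Tmem164 and D16Ertd472e are not those that represent these genes where 1 per gene is counted. Their differences need not be those of the genes.

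Cebpg and Cebpa are neighbours on mouse chromosome 7 in the RefSeq table, in the order Pepd, Cebpg, Cebpa, Slc7a10 and Lrp3 when predicted genes are left out. Slc7a10, an amino acid transporter gene, fell 26.7-fold, from 7476 ± 505 to 249 ± 16.2 (SD, n = 3 each), beside the 2.13-fold fall of Cebpa and the smaller fall of Cebpg. Pepd, a peptidase gene, was at 2198 ± 266 and 2459 ± 82.7 and did not pass (log2 0.17). Lrp3 was too dim to be tested. Next to Cebpb, on chromosome 2, Ptpn1, a phosphatase gene that restrains insulin signalling, rose 2.17-fold while neither Cebpb probe set passed. Tmem189, the nearest gene on the other side of Cebpb, did not pass (log2 0.29). Neither did the next genes outward, Ube2v1 (log2 0.14) and Ripor3 (log2 0.20). On chromosome 16, Spidr overlaps the end of Cebpd in that table and did not pass, at a log2 difference of 0.08. Mzt2, the nearest gene on the other side, fell (log2 -0.65, adjusted p = 0.00219), and so did Pkp2, a plakophilin gene beyond Spidr (log2 -0.82, adjusted p = 0.000189), while Cebpd probe set 1423233_at rose.

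The genes around the C/EBP factors were described by 6 lists, each gene by its brightest probe set. Of 11201 genes tested in this way 31.9% passed, 15.9% upward and 16% downward, with a median log2 difference of -0.0051. The lists hold 88 tested genes, of which 54 passed. List counts and medians are descriptions without a test of the list. Membership of a list does not mean that the factor regulates the gene in these mice. The fit with Pparg ldi/+ array 3 as the only mutant array has fewer samples and calls a smaller share of all probe sets. Whether a lower list count in it comes from fewer samples or from the missing epididymal transcripts was not tested.

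Genes listed as activated by C/EBPalpha in fat cells, not all of them settled direct targets, were mostly lower. Of 18 tested, 14 fell and 0 rose, and the median was -0.80. The resistin gene Retn fell 13.6-fold, with signals of 21048, 21451 and 18502 in wild type and 1365, 1760 and 1302 in Pparg ldi/+, far apart. Cidec, which promotes large lipid droplets, fell 4.0-fold, and Pparg, itself on this list, fell as given above. Irs1, the insulin receptor substrate, fell 4.02-fold, from 2476 ± 427 to 597 ± 136. The 4 that did not pass were Fabp4 at -0.16, Gpd1 at -0.51, Igf1 at -0.18 and Acadl at 0.16, which was the only member with a positive difference. Many of these genes are also PPARG targets and adipocyte markers. When array 3 was the only Pparg ldi/+ array, 11 of the list's genes fell and 0 rose.

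Among acute-phase and inflammatory genes that C/EBPbeta and C/EBPdelta activate, the filter on brightness left 13 of 21. In this set 8 rose and 2 fell, with a median of 1.20, or 0.84 over all 21. Ptx3, a secreted pattern recognition protein, rose 4.14-fold, Il1rn, the interleukin-1 receptor antagonist, rose 3.99-fold, and Cd14, a lipopolysaccharide co-receptor, rose 2.29-fold. Lcn2, the lipocalin that binds siderophores, was 1477, 297 and 2636 in wild type and 10139, 11824 and 10190 in Pparg ldi/+, so every Pparg ldi/+ mouse was above the scattered wild-type mice (log2 3.29, adjusted p = 0.0035). The 2 that fell were the acute-phase genes Orm1 at -1.51 and Serpina3n at -0.51. Orm2 and Il1b lay below the filter in wild type and were tested through their Pparg ldi/+ values, so the tested genes favour rises. The part of macrophages, whose 18 markers all rose, in these signals was not tested. Array 3 as the only Pparg ldi/+ array gave 3 rises and 1 fall in the list.

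Of 17 bZIP relatives and dimer partners tested, 8 rose and 1 fell, with a median of 0.52. Atf3, a stress-induced factor, rose 4.02-fold, with 348, 312 and 376 in wild type and 1513, 1349 and 1596 in Pparg ldi/+. Batf2 rose 4.72-fold and Nfil3 rose 2.17-fold. Ddit3, which encodes the C/EBP homologous protein CHOP that dimerises with C/EBP factors, was 481, 694 and 521 in wild type and 1086, 1036 and 1025 in Pparg ldi/+, and rose 1.83-fold (adjusted p = 0.00151). Atf4, a dimer partner of C/EBPgamma, rose 1.36-fold. Hlf, a circadian bZIP factor, fell (log2 -0.82). Batf2 and Batf lay below the filter in wild type and entered through their Pparg ldi/+ values. Compared with wild type, in Pparg ldi/+ array 3 alone, 2 of these genes rose and 1 fell. The call of Hlf ended without Pparg ldi/+ array 1 or 3 or wild-type array 3, where 0 genes of the list fell. That count was also 0 with no filter on dim probe sets and with only the brighter 30% of probe sets tested.

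Of 27 genes that regulate C/EBP levels or activity, 11 fell and 2 rose, with a median of -0.28. Pparg, the gene that carries the ldi allele, is 1 of the 11 that fell. Klf15, a Krüppel-like factor of adipogenesis, fell 3.14-fold, and Ebf1, an early B cell factor that acts on Cebpa and Pparg, fell 2.24-fold. Nr3c1, the glucocorticoid receptor gene through which Cebpd is induced, fell 1.61-fold, from 3282 ± 337 to 2023 ± 97.9 (SD, n = 3 each). The 2 that rose were Egr2 (Krox20), which acts on Cebpb, at 1.91, and Pias1, a SUMO ligase, at 0.48. Trib2 and Cop1, which together drive the breakdown of C/EBPalpha protein, fell by 0.66 and 0.35 on the log2 scale. The phosphorylating kinase gene Gsk3b fell by 0.43. In Pparg ldi/+ array 3 alone, 7 of these genes fell and 0 rose. Without Pparg ldi/+ array 1 or 3 or wild-type array 2, 1 gene of the list rose, as also with no filter on dim probe sets and with no intensity trend.

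Amino acid and endoplasmic reticulum stress genes that C/EBPgamma shares with ATF4 went both ways. Of 16 tested, 5 rose and 5 fell, with a median of -0.15. Phgdh, of serine synthesis, fell 4.20-fold, Asns, asparagine synthetase, fell 2.45-fold, from 3239 ± 106 to 1314 ± 181 (SD, n = 3 each), and Vldlr fell 2.54-fold. Sesn2 and Slc3a2 also fell. The 5 that rose were Ddit3, Atf4 and Atf5, which encode bZIP factors, and Shmt2 and Mthfd2, of mitochondrial folate metabolism. Array 3 as the only Pparg ldi/+ array gave 4 falls and 0 rises. Without Pparg ldi/+ array 1 or 3 or wild-type array 1, 3 genes of the list rose, as also with no filter on dim probe sets.

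The list drawn up for C/EBPepsilon holds neutrophil genes, most of them granule genes, and was mostly dim. Not all of its members are settled C/EBPepsilon targets. Only 4 of 15 were tested, of which Csf3r, Lcn2 and Lyz2 rose and Mmp9 did not pass. Csf3r encodes a receptor and not a granule protein. Taking array 3 alone for Pparg ldi/+, 1 gene of this list rose and 0 fell. Lyz2 is a macrophage gene and Lcn2 an adipocyte and acute-phase gene as well. The granule genes Ltf, Camp, Ngp, Elane and Mpo were too dim to be tested, with mean signals of 173 or less in either genotype. The summed signal of 9 neutrophil markers was 1004 to 1662 in wild type and 1506 to 1928 in Pparg ldi/+.

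**Figure D5:**
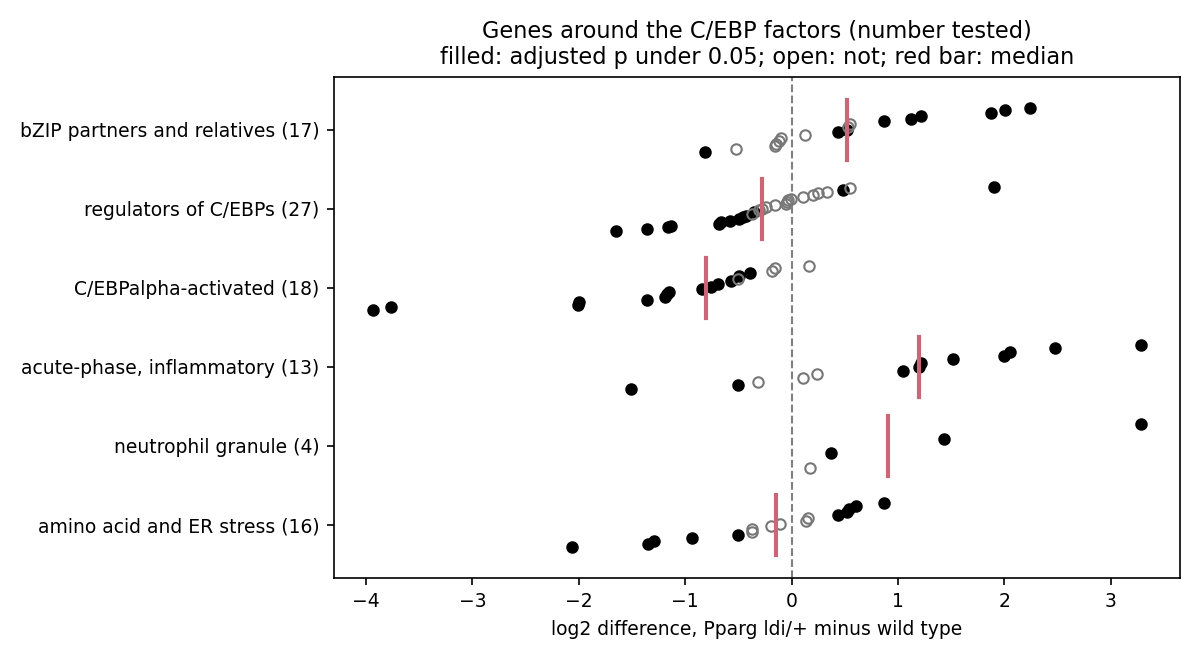
Log2 difference, Pparg ldi/+ minus wild type, of each tested gene in the 6 lists, with the number tested in brackets. Filled points passed at an adjusted p under 0.05. Red bars are list medians: -0.80 for genes listed as activated by C/EBPalpha and 1.20 for acute-phase and inflammatory genes.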

How the data were processed

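The value table deposited by the authors holds intensities on a linear scale. The submitters' processing notes name MAS5 for 2 of the 6 samples; no version, target or detection call is known here. Intensities were rescaled so that every array had a mean of 500 once 2% of values were trimmed at each end, then log2(signal + 32) was taken. Of 45101 probe sets, 64 controls were left out; 34945 others had a single symbol, updated by gene number in a RefSeq table of GRCm38.p6 for 34741. Probe sets dimmer, by their mean, than the median of all probe sets (log2 7.47) were not tested. All 6 arrays entered a two-sided limma fit (version 3.58.1, R 4.3.3; lmFit, then eBayes with a trend), with Benjamini-Hochberg adjustment over 22519 probe sets at a threshold of 0.05. The fit was tried on simulated data with independent noise, its size taken from the wild-type arrays. Those data held no array effects and no epididymal transcripts on part of a group, so they do not vouch for the calls here. Signals are means ± SD over 3 mice.

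Members and lists were chosen with earlier results of these data known. Named were all member probe sets, Pparg, the 3 nearest probe sets of each member, and in each list the 3 smallest p in each direction and members against the majority; others were chosen after their values were seen, as were the promoter motifs. Alternatives changed offset, scaling, filter, variance model, array weights, probe set choice and arrays, and used the titles' number as a block. The labels do not say that this number marks a litter.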

Additional observations from a re-analysis of the deposited data

How the results depend on the processing

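Cebpa fell in all 18 alternatives, between -1.10 and -1.03, and the number of C/EBP probe sets called was 3 to 4 in each except Pparg ldi/+ array 3 alone, where it was 1 (Cebpa). That comparison called 2734 of all probe sets against 6533, and 29 genes of the lists against 54; a fit of 1 array against 3 has fewer samples. With 1 probe set a gene 3663 passed, of fewer tested. With 1 array left out, 4835 to 5878 of all probe sets passed, 3 to 4 C/EBP probe sets and 45 to 54 genes of the lists. The call of Cebpd 1423233_at also ended without a filter on dim probe sets (adjusted p = 0.0806) and with no intensity trend (adjusted p = 0.0796), and over its alternatives the adjusted p reached 0.229. With deposited values unscaled, Cebpg 1425262_at was at -0.33 (adjusted p = 0.103).

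Sign changes were found only among probe sets that passed in no alternative. With 1 array left out, the log2 difference ranged from -0.113 to 0.112 for Cebpb 1418901_at, from -0.0838 to 0.0493 for Cebpb 1427844_a_at, from -0.150 to 0.0225 for Cebpd 1456605_at and from -0.233 to 0.121 for Cebpg 1425261_at. Cebpb 1418901_at was 0.0205 with unscaled values, and Cebpb 1427844_a_at was -0.0279 with array weights. With Pparg ldi/+ array 3 alone, Cebpb 1427844_a_at was -0.0452, Cebpd 1456605_at 0.0705 and Cebpg 1425261_at 0.251.

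With the titles' number as a replicate block 4 C/EBP probe sets passed, 1 higher and 3 lower, and 25.3% of all. The deviations of same-numbered arrays from their genotype means correlated at -0.112 to -0.0651, and the best with another number at 0.0478 to 0.0634. Deviations from means of 3 arrays cannot show whether mice are paired. Since the labels do not say that the number marks a litter, the numbers were not taken to pair the mice. Dim probe sets limit the dimmest Cebpg and Cebpd probe sets.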
